A study of Mus musculus with 6 samples.

Results

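Podocalyxin, encoded by Podxl, is a heavily glycosylated sialomucin of the CD34 family that lines the apical surface of polarised cells. Its group here holds 8 genes, namely the family members Podxl, Podxl2 and Cd34, the cytoplasmic organisers Ezr, Slc9a3r1 and Slc9a3r2, and the further apical glycoproteins Muc1 and Prom1. Each of them was measured by 1 probeset, so the 8 genes are 8 of the 17418 genes that had a probeset with a single gene symbol on the arrays. The group was built around Podxl and chosen by results already known from these arrays, so the comparison of tamoxifen with control pools is given for its members as a description and not as a test.

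The cells were p53 null mammary epithelial cells (MECs) of Balb/c origin, grown from p53-null duct fragments in wild-type Balb/c hosts whose own epithelium had been cleared. The donors were 8 weeks old, and the hosts were cleared at 3 weeks and received the fragments 5 weeks later. Hosts of the tamoxifen group carried a pellet with 5 mg tamoxifen, a drug that modulates the estrogen receptor, which stayed in place 13 weeks. Collection followed 4 weeks later. The control group carried a sham pellet. All mice of both groups had an injection of 100 µg 17β-estradiol (E2) 8 h before collection, so both groups are p53 null and estrogen treated. The labels place the pellet at a host age of 8 weeks, while the steps they list before it add up to 16 weeks. The paper's methods also give a host age of 16 weeks for the pellet. Each group has 3 pools of 3 to 5 mice by the sample labels, or 5 by the series' design text, and each pool had its own Affymetrix mouse array. Glands were pooled before collagenase digestion, and the fat pad around the transplant was that of the wild-type host. Mean intensity was 395 to 403 per array over 22369 probesets. Epithelial genes were measured, with Krt18, a luminal keratin, at a mean of 10336 in the tamoxifen pools and 10528 in the control pools. Stromal and endothelial genes had signal as well, with Dcn, the matrix proteoglycan decorin, at 11717 in tamoxifen pools and 11559 in control pools, and Cdh5, the cadherin of endothelial junctions, at 5993 in tamoxifen pools and 5379 in control pools. The pools were therefore not free of other cell types, and fewer cells of a type and less RNA per cell cannot be told apart in them.

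In epithelia, podocalyxin is among the earliest proteins delivered to the membrane that will face a new lumen, and its charged extracellular mucin domain keeps opposing membranes apart. Its short cytoplasmic tail ends in a motif that binds the PDZ domains of NHERF1 and NHERF2, and these adaptors connect it to ezrin and through ezrin to actin. Podocalyxin and CD34 are also surface proteins of blood vessel endothelium and of blood progenitors, and podocalyxin is best known from the podocytes of the kidney. All intensities below are linear, as deposited, and are set only against other pools of the same gene, since probesets of different genes do not share a scale.

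Podxl was lower in every tamoxifen pool than in any control pool. Its intensity was 1755, 1658 and 1826 in the tamoxifen pools, against 2596, 2832 and 3009 in the control pools. The groups did not overlap, and the tamoxifen 3 and control 1 pools were the nearest to each other. The mean was 1746 ± 84.1 in tamoxifen pools and 2812 ± 207 in control pools (SD, n = 3 each; log2 fold change -0.69, SE 0.08), which is 37.8% lower. The spread of log2 intensity between pools was 0.07 in the tamoxifen group and 0.11 in the control group (SD, n = 3 each), small beside the difference. Podxl ranked 159th of 17418 genes by the size of its decrease.

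The other genes of the family had other patterns. Podxl2 encodes endoglycan, the third sialomucin of the family. It had 125, 104 and 123 in the tamoxifen pools, against 120, 112 and 121 in the control pools. The groups overlapped completely, with a log2 fold change of -0.01 and a 95% interval from -0.24 to 0.22.

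Cd34, which encodes the sialomucin that marks endothelium, blood progenitors and some stromal cells, lay on the other side of control. Its intensity was 2638, 3000 and 2996 in the tamoxifen pools, against 2237, 2553 and 2485 in the control pools. The groups did not overlap, although tamoxifen 1 and control 2 differed little. The mean was 2878 ± 208 in tamoxifen pools and 2425 ± 166 in control pools (SD, n = 3 each; log2 fold change 0.25, SE 0.09). Thus the 3 genes of the family, in these pools, showed a lower value, an overlap and a higher value.

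**Figure D1:**
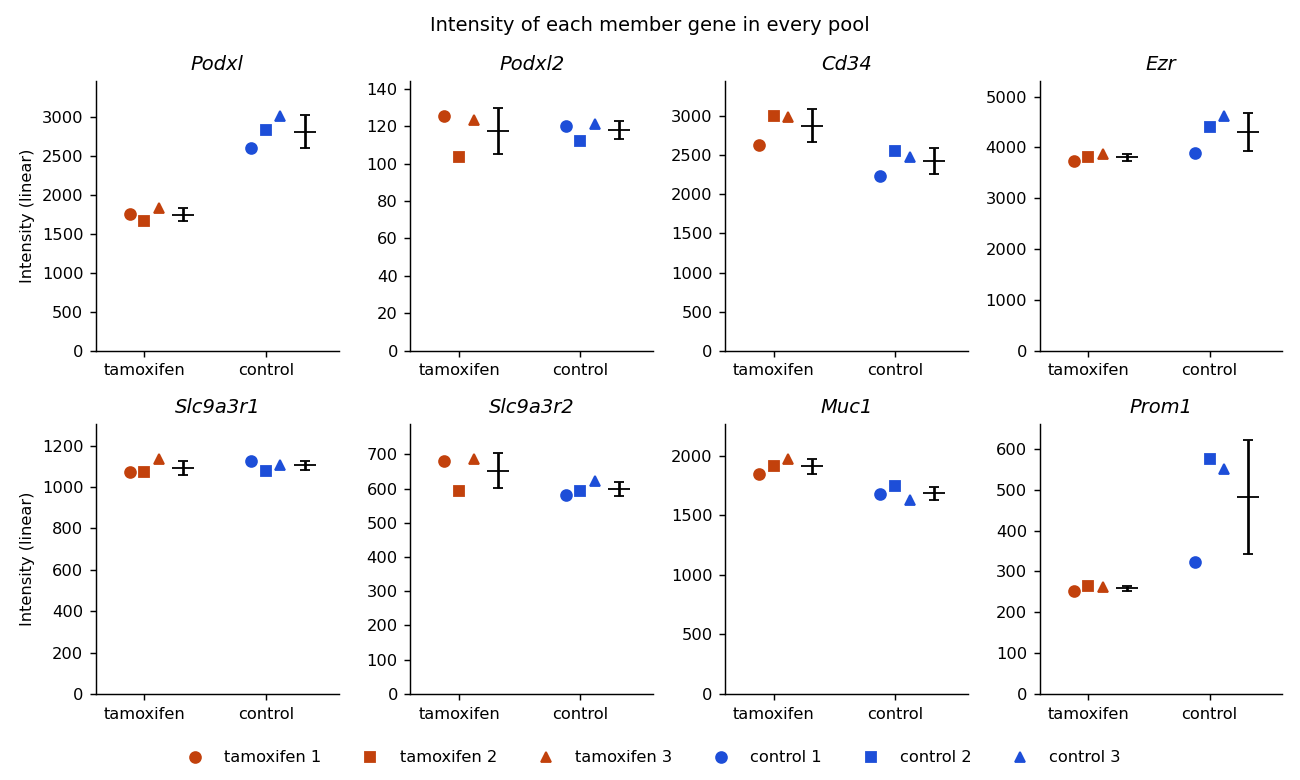
Linear intensity of the 8 member genes (1 panel each, y axis from 0) in each of 3 tamoxifen pools and 3 control pools, with the mean and SD of each group as a bar beside the points. Podxl, Prom1 and, by a narrow margin, Ezr lie lower in all tamoxifen pools, Cd34 and Muc1 lie higher, and the control 1 pool stands apart from the other controls in Prom1 at 322.

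The cytoplasmic organisers had smaller differences than Podxl. Ezr encodes ezrin, the linker between apical membrane proteins and actin. It had 3736, 3817 and 3866 in the tamoxifen pools, against 3896, 4413 and 4616 in the control pools. The groups were separated only by the narrow margin between tamoxifen 3 and control 1, and the log2 fold change was -0.18 with a 95% interval from -0.38 to 0.03.
Slc9a3r1 encodes NHERF1, the PDZ adaptor that holds podocalyxin, ion transporters and receptors to ezrin. It had 1075, 1071 and 1133 in the tamoxifen pools, against 1126, 1078 and 1107 in the control pools. The groups overlapped, with the narrowest interval of the 8 genes, at a log2 fold change of -0.01 and a 95% interval from -0.17 to 0.14. Slc9a3r2 encodes NHERF2, its relative in podocytes, endothelium and other cells, and had 680, 593 and 685 in the tamoxifen pools, against 581, 591 and 623 in the control pools. Tamoxifen 2 lay among the controls while the others lay above them, and the 95% interval of the log2 fold change of 0.12 ran from -0.08 to 0.32. For both NHERF genes and for Podxl2 the interval therefore leaves out a decrease as large as that of Podxl.

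The remaining apical glycoproteins went in opposite directions. Muc1, the transmembrane mucin of luminal surfaces, had 1849, 1917 and 1971 in the tamoxifen pools, against 1682, 1743 and 1630 in the control pools. The groups did not overlap, and the tamoxifen mean was 13.5% above control (log2 fold change 0.18, SE 0.07).
Prom1 encodes prominin-1 (CD133), a membrane protein of apical protrusions that in the mouse mammary gland marks luminal cells with hormone receptors. Its intensity was 253, 264 and 261 in the tamoxifen pools, against 322, 575 and 552 in the control pools. The tamoxifen pools were nearly identical, while the control 1 pool lay between them and the other controls. The mean was 259 ± 6.03 in tamoxifen pools and 483 ± 140 in control pools (SD, n = 3 each; log2 fold change -0.85, SE 0.22). This was the lowest log2 fold change of the 8 genes. The SD of log2 intensity was 0.03 in the tamoxifen group and 0.47 in the control group. Without control 1 the log2 fold change was -1.12 (SE 0.07), and with any single array left out it was -1.12 to -0.70.

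**Figure D2:**
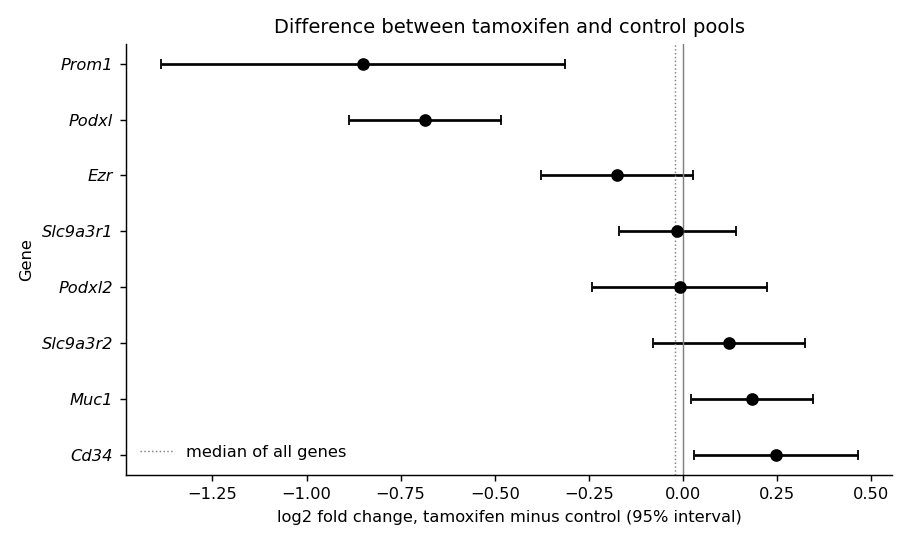
Log2 fold change (x axis, tamoxifen minus control, from limma) of the 8 member genes with 95% intervals as bars and the median of all genes, -0.02, as a dotted line. The intervals of Prom1 and Podxl lie wholly below 0 and those of Cd34 and Muc1 wholly above it, and that of Prom1 is the widest, from -1.39 to -0.31.

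Over the group, 3 genes had lower and 2 had higher intensity in all tamoxifen pools than in any control pool. Of all 17418 genes, 12.4% were lower and 10.5% higher by the same measure. At an unadjusted p under 0.05 from limma, 2 members were lower and 2 higher, where 6.3% of all genes were lower and 6.91% higher. With Benjamini-Hochberg adjustment across all 22369 probesets and a threshold of 0.05, 1 member was lower and 0 higher, beside 0.103% of all genes lower and 0.304% higher. That member was Podxl, with an adjusted p of 0.0431 from limma, and the nearest member outside the threshold was Prom1, with an adjusted p of 0.225. Because these values were known when the genes were chosen, the counts describe the group and show nothing further about it. The median log2 fold change of the members was -0.01, close to the -0.02 of all genes. Podxl had a log2 fold change of -0.64 to -0.74 with any single array left out, but its adjusted p was then 0.0762 to 0.193 from limma. With control 1 left out the adjusted p from limma was 0.0762 for Podxl and 0.03 for Prom1, so that the member past the threshold was then Prom1. That was the lowest value for Prom1 with any single array left out, and the highest was 0.477 from limma. The smallest p that an exact permutation test could reach for 1 gene with 3 pools a group is 0.1.

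Sequence of the region around the transcription start is shown for Prom1 and Cd34, the members besides Podxl with the largest differences in each direction. RefSeq promoter windows of the build GRCm38.p6, from 250 bases before to 50 after a start, were found for 7 of the 8 members, with Podxl not among them. Prom1 has windows at chr5:44101687-44101986 and chr5:44094719-44095018, both on the minus strand, and Cd34 at chr1:194938571-194938870 on the plus strand. Capitals mark matches, on either strand and with no overlap between motifs, to GGTCA, which is the core of the estrogen response element and reads TGACC from the opposite strand, to GGGCGG, which is the GC box, and to CCAAT.
Prom1, first window: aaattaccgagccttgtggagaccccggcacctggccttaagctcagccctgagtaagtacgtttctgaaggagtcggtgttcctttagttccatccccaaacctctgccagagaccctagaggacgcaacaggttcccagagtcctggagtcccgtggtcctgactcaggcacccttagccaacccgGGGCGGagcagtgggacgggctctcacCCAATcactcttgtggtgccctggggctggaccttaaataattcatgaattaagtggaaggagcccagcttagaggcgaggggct
Prom1, second window: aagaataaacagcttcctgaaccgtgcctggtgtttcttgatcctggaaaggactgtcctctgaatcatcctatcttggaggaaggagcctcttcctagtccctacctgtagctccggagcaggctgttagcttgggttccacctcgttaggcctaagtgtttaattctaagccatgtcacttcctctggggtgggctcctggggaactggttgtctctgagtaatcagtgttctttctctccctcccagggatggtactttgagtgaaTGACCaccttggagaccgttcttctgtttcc
Cd34: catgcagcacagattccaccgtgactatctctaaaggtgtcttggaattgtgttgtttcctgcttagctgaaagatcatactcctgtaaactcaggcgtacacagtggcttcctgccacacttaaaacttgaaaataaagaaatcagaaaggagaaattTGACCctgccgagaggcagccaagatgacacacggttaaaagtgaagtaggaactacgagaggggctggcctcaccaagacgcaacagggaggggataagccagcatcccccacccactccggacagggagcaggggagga
The first window of Prom1 held 1 GC box and 1 CCAAT box, and its second window and that of Cd34 held 1 GGTCA core each. Of all 32851 windows, 40.5% hold a GGTCA core, 35.7% a GC box and 37.4% a CCAAT box. These short motifs are thus common, and a match is only a run of letters.

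Genes of blood vessel endothelium were measured beside Podxl and Cd34, since both are expressed there. Like the members, this list and those below were chosen with earlier results of these data known. Their counts are thus descriptions, and the shares of all genes beside them give scale only. Of 18 markers, 14 were higher and 0 lower in all tamoxifen pools than in any control pool, against 10.5% and 12.4% of all genes, and the median log2 fold change was 0.21. None passed the adjusted threshold (0 with limma, and 0 in the same comparison without limma's moderation of the variance, beside 0.0804% of all genes for the unmoderated comparison). Without adjustment, limma put 8 higher and 0 lower at p under 0.05, beside 6.91% and 6.3% of all genes, and the unmoderated comparison put 3 past it, beside 12.7% of all genes. Plvap, a protein of endothelial diaphragms, had 2485, 2265 and 2171 in the tamoxifen pools, against 1481, 1682 and 1802 in the control pools. None of the 18 markers was near 0, as each had a mean intensity of 184 or more. The mean of the 18 markers, as log2 intensity centred on the 6 arrays, was 0.17, 0.04 and 0.13 in the tamoxifen pools, against -0.28, -0.05 and -0.02 in the control pools. Relative to that mean, Cd34 had -0.17, 0.14 and 0.06 in the tamoxifen pools, against 0.04, -0.00 and -0.07 in the control pools, a difference of 0.02. Its groups then overlapped. Podxl had -0.51, -0.46 and -0.40 in the tamoxifen pools, against 0.51, 0.40 and 0.46 in the control pools, a difference of -0.91. Subtracting the marker mean, which was higher in the tamoxifen pools, lowers the difference of every gene by the same amount. The wider gap of Podxl and the small difference of Cd34 on this scale therefore show nothing particular to either gene. Prom1 had a difference of -1.08 on the same scale. The part of endothelial cells in these values was not tested.

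**Figure D3:**
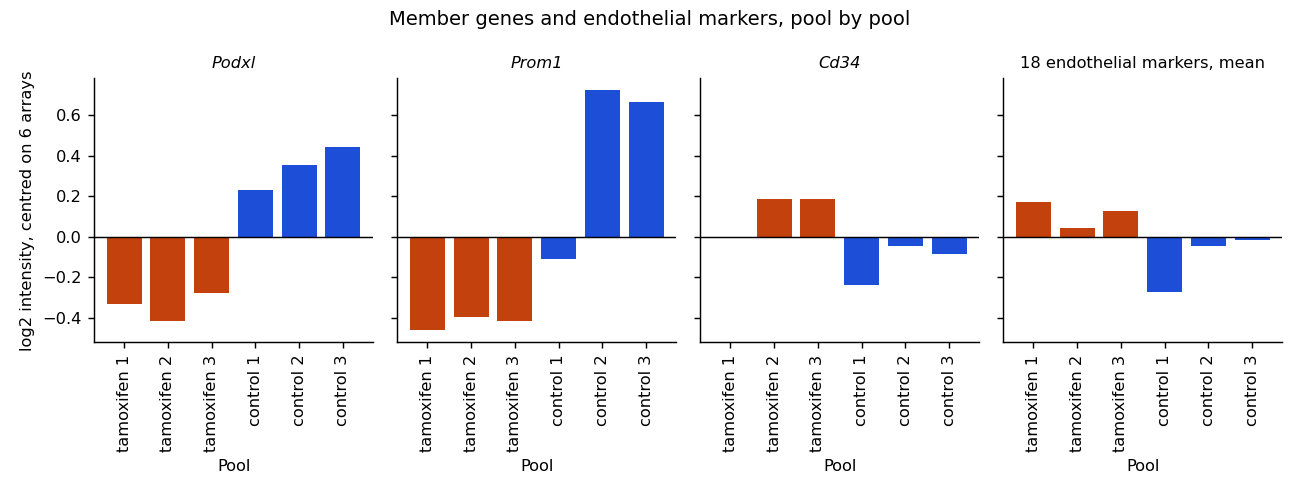
Log2 intensity centred on the mean of the 6 arrays (y axis, log2 units) in each pool, tamoxifen pools left of control pools, for Podxl, Prom1, Cd34 and the mean of 18 endothelial marker genes. Cd34 and the endothelial mean are highest in tamoxifen pools and lowest in control 1, at -0.24 and -0.28, whereas Podxl and Prom1 are lower in the tamoxifen pools.

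Other cell types were followed with marker lists. Stromal markers lay near control, with a median log2 fold change of -0.02 over 13 genes, and Pdgfra, the fibroblast receptor for platelet-derived growth factor, had 514 ± 26.1 in tamoxifen pools and 581 ± 13.9 in control pools (SD, n = 3 each). Luminal markers shared by all luminal cells had a median of -0.10 over 7 genes. Of these, 6 had a negative log2 fold change, beside 56.0% of all genes. Basal markers had a median of 0.02 over 9 genes, with Acta2, smooth muscle actin of the myoepithelium, at 6827 in tamoxifen pools and 6736 in control pools. Leukocyte markers had a median of 0.15 over 7 genes, and tamoxifen 2 stood at 0.75 on the centred scale against -0.37 to -0.01 in the other pools. Without tamoxifen 2 the leukocyte median was -0.12, with 6 of 7 genes negative, and with array weights it was -0.10. Mast cell markers had a median of 0.42 over 5 genes, or 0.21 with an offset of 32 added to each intensity, among them Cpa3, a mast cell protease, at 969 ± 112 in tamoxifen pools and 721 ± 23.5 in control pools (SD, n = 3 each). Some of these markers had little signal, down to a mean intensity of 11.6. Fcer1a had 30.3 in tamoxifen pools and 21.9 in control pools, and the offset shrinks differences at such low values most.

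In these lists, as in the luminal lists described next, 0 genes passed the adjusted threshold, with or without moderation of the variance by limma. At an unadjusted p under 0.05 from limma, stromal markers had 1 lower and 0 higher, shared luminal markers 1 and 1, basal markers 0 and 2, leukocyte markers 0 and 0, and mast cell markers 0 and 3, beside 6.3% of all genes lower and 6.91% higher. In all tamoxifen pools against any control pool, stromal markers had 3 lower and 1 higher, and shared luminal markers 4 and 1. Basal markers had 2 and 2 by that measure, leukocyte markers 0 and 0, and mast cell markers 0 and 3. Of all genes, 12.4% were lower and 10.5% higher in that way.

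Prom1 was set beside markers of hormone-sensing luminal cells, and these were mixed. Of 7 measured genes, 2 were lower and 1 higher in all tamoxifen pools than in any control pool, beside 12.4% and 10.5% of all genes, and the median log2 fold change was 0.01. The range was from -0.95, that of Tnfsf11, to 0.43, that of Cited1. The groups overlapped in Tnfsf11, where control 1 stood at 883 against 226 and 326 in the other controls. Without control 1 its log2 fold change was -0.38. Esr1, the estrogen receptor, had 605, 549 and 656 in the tamoxifen pools, against 660, 836 and 1016 in the control pools. Wnt4, a signal that these cells send to their neighbours, had 307, 262 and 306 in the tamoxifen pools, against 391, 335 and 369 in the control pools. Both were lower in every tamoxifen pool, though tamoxifen 3 and control 1 nearly met in Esr1. Cited1, a transcriptional coactivator of the same cells, had 1232, 1139 and 1261 in the tamoxifen pools, against 906, 984 and 804 in the control pools, a difference in the other direction. Foxa1, the pioneer factor of the lineage, overlapped, at 1953 ± 193 in tamoxifen pools and 1855 ± 134 in control pools (SD, n = 3 each). At an unadjusted p under 0.05 from limma, 2 of the 7 were lower and 1 higher, beside 6.3% and 6.91% of all genes, and the lowest adjusted p was 0.163, that of Cited1. Esr1, Wnt4 and Tnfsf11 were named after their values were seen. Among markers of luminal progenitors, 2 of 8 were lower and 2 higher at the same unadjusted threshold, with the same shares of all genes, among them Ltf, the milk protein lactoferrin, at a log2 fold change of 0.73 (SE 0.21), and Wfdc18, a secreted protein gene, with -0.40 (SE 0.12).

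The wider apical machinery was described with 5 lists of 92 genes in all, without the members. By limma 0 of the 92 rose and 0 fell at an adjusted p under 0.05, and 0 passed without its moderation of the variance. At an unadjusted p under 0.05, 15 were lower and 9 higher by limma, beside 6.3% and 6.91% of all genes, and 25 passed in either direction without moderation, beside 12.7% of all genes. Their median log2 fold change was -0.00225, and 18 were lower and 20 higher in all tamoxifen pools than in any control pool, beside 12.4% and 10.5% of all genes.

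Among the partners of ezrin, 13 of 15 had a positive log2 fold change, beside 44.0% of all genes, with a range over the list from -0.05 to 0.20. The median was 0.07, and 0.03 without tamoxifen 2. Ppp1r12a, the targeting subunit of the phosphatase that acts on myosin and on ezrin-like proteins, had 1064 ± 27.1 in tamoxifen pools and 937 ± 37.6 in control pools (SD, n = 3 each), and an adjusted p of 0.36 from limma. Icam2, an adhesion molecule that binds ezrin and is strong in endothelium, had 282 ± 10.8 in tamoxifen pools and 246 ± 18.8 in control pools (SD, n = 3 each). Icam2 is also among the endothelial markers above, and the list of other apical glycoproteins shares a gene with those markers too. The lists are therefore not separate sets of genes. Among PDZ adaptors and their ligands the median was -0.08 over 14 genes, and it was -0.03 without control 2 and also without tamoxifen 2. P2ry1, a nucleotide receptor whose tail binds NHERF2, had 153, 131 and 140 in the tamoxifen pools, against 224, 172 and 203 in the control pools, with an adjusted p of 0.19 from limma. Gipc1, a PDZ adaptor of endocytosis, had a log2 fold change of -0.26 (SE 0.07).

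Of the polarity genes, 13 of 19 had a negative log2 fold change, beside 56.0% of all genes, and 6 were lower in all tamoxifen pools than in any control pool, beside 12.4% of all genes. The median was -0.08, and it was -0.02 without control 1 and -0.03 without tamoxifen 2. Pard6b, the partner of atypical protein kinase C at the forming apical surface, had 776, 766 and 820 in the tamoxifen pools, against 1274, 1082 and 932 in the control pools. The groups did not overlap, and the controls were the more spread, and the adjusted p was 0.225 from limma (log2 fold change -0.47, SE 0.12). Crb3, the Crumbs protein of the apical membrane, had 376 ± 16.0 in tamoxifen pools and 440 ± 23.4 in control pools (SD, n = 3 each). The genes of apical vesicle traffic had a median of -0.01 over 29 genes. Mal, a raft protein of apical transport, had 565, 483 and 567 in the tamoxifen pools, against 341, 371 and 413 in the control pools, with an adjusted p of 0.141 from limma (log2 fold change 0.52, SE 0.11). Rab3ip, the exchange factor that activates Rab8 on vesicles bound for the lumen, was lower at 405 ± 15.5 in tamoxifen pools, against 502 ± 8.45 in control pools (SD, n = 3 each).

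Other apical glycoproteins ranged from a log2 fold change of -0.84, that of Muc4, to 1.05, that of Muc16, over 16 genes with a median of 0.03. Muc4, a large membrane mucin that binds ERBB2, had 253, 226 and 219 in the tamoxifen pools, against 311, 534 and 434 in the control pools, with an adjusted p of 0.182 from limma. As in Prom1, control 1 was the control nearest to the tamoxifen pools. Alpl, the tissue alkaline phosphatase, had 2267, 2267 and 2480 in the tamoxifen pools, against 1728, 1794 and 1786 in the control pools, with an adjusted p of 0.102 from limma (log2 fold change 0.40, SE 0.07). The mucins Muc15 and Muc16, named after their values were seen, lay on opposite sides of control, Muc16 having the highest log2 fold change of the list, and in both the control 1 pool was extreme. Muc15 had 1593, 1764 and 1902 in the tamoxifen pools, against 3771, 2621 and 2141 in the control pools. Muc16 had 522, 422 and 445 in the tamoxifen pools, against 110, 274 and 369 in the control pools. Without control 1 the log2 fold change was 0.54 for Muc16, against 1.05 with all pools, and -0.44 for Muc15, against -0.66 with all pools.

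**Figure D4:**
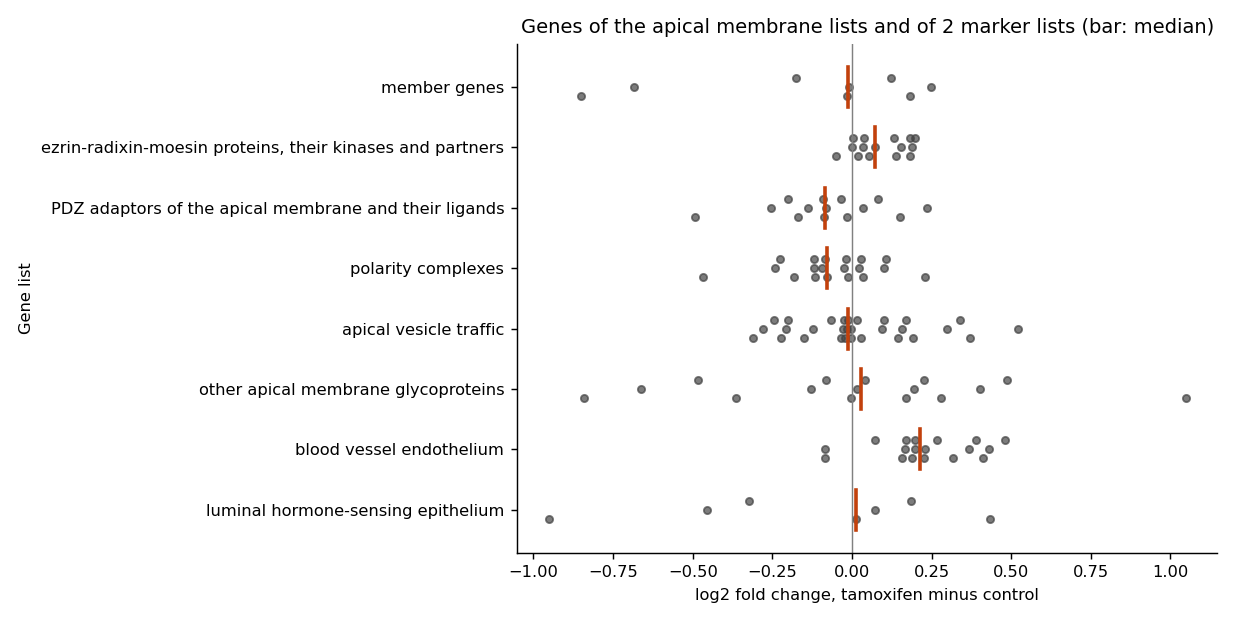
Log2 fold change (x axis, tamoxifen minus control) of each gene (point) in the member group, in 5 lists of the apical membrane and in 2 marker lists, with the median of each list as a bar. Of the lists drawn, the endothelial markers have the highest median, 0.21, and the highest single value is Muc16 at 1.05, which is 0.54 without control 1.

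The genes most like Podxl across the 6 arrays were sought by the root mean square difference of log2 intensity, each gene centred on its own mean. The median gene differed from Podxl by 0.36, and of the other members Prom1 was nearest with 0.24 and Ezr next with 0.26, while Cd34 was farthest with 0.47. The 5 nearest genes were Tox3 with 0.06, Fam160a1 with 0.06, Gm6322, Capn8 and Bmpr1b, the last 3 with 0.07 to 0.08. Tox3, a gene of an HMG-box nuclear protein, had 98.4, 96.3 and 114 in the tamoxifen pools, against 162, 169 and 177 in the control pools. Bmpr1b, a receptor for bone morphogenetic proteins, had 50.1, 46.9 and 50.6 in the tamoxifen pools, against 83.2, 77.8 and 89.4 in the control pools. Capn8, a calpain protease gene, had 91.1 ± 1.78 in tamoxifen pools and 159 ± 12.3 in control pools (SD, n = 3 each), and Fam160a1 had 383 ± 22.3 in tamoxifen pools and 647 ± 78.2 in control pools. Gm6322 had little signal, with a mean of 6.52 in tamoxifen pools and 10.1 in control pools. Its mean intensity was at percentile 1.01 of all genes, so its likeness to Podxl rests on very low values. All 5 had lower intensity in every tamoxifen pool, which likeness to Podxl requires.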

How the data were processed

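Gene expression was measured in MECs on 6 Affymetrix arrays, 3 for tamoxifen and 3 for control pools, and groups were taken from the sample titles. The authors deposited linear intensities, 1 value per probeset and array. Their processing notes list MAS5 and mm9 without a role. How background was corrected and arrays were scaled is not given in the sources used here. An exon array is named by the labels and a gene array by the paper's methods, and the annotation used was that of the deposited platform.

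Of 22369 probesets, 18286 had 1 gene symbol, 1276 several and 2807 none, and the probeset with the highest mean stood for a gene. The log2 of each intensity, without offset or filter, was fitted on all probesets with limma 3.58.1 in R 4.3.3 (lmFit and eBayes, group as the only term, 4 residual and 2.35 prior degrees of freedom). Its estimates of known changes were checked on simulated arrays with independent noise, which does not test the calls made on these data. P-values were two-sided and adjusted by Benjamini and Hochberg, and intervals are 95% intervals of the fit. Tables and plots used Python 3.11.15, pandas 2.3.3, numpy 2.4.6 and matplotlib 3.10.9.

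The members and lists were chosen with earlier results of these data known. Named genes are the members, in each apical list the genes past the threshold and the 2 with the smallest p, in each marker list the gene with the highest mean intensity and the one with the smallest p, and the 5 genes nearest to Podxl. Esr1, Wnt4, Tnfsf11, Muc15 and Muc16 lie outside this rule and were named after their values were seen. There were 12 listed genes without a single-symbol probeset, and these were not analysed here. Tried as alternatives were leaving out each array, a block for replicate number, fitting 1 probeset per gene, adding 32 before log2, keeping probesets above the median intensity, centring arrays on their medians, quantile normalization, array weights, a robust fit with a variance trend, and the methods' t-test (equal variance, on log2 intensity). With 1 probeset per member, the mean over a gene's probesets equals the reported value. The pools are separate by the labels. P-values set the difference between groups against the spread between pools, which limma moderates across probesets. The spread between mice within a pool was not measured. The number of arrays limits the precision.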

Additional observations from a re-analysis of the deposited data

How the results depend on the processing

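The log2 fold change of Podxl was negative in all 15 alternatives. It stayed past the adjusted threshold in 7 and not in 8, namely the methods' t-test (-0.69, adjusted p = 0.145), the replicate block by limma (-0.69, adjusted p = 0.167) and each left-out array (-0.74 to -0.64, adjusted p = 0.0762 to 0.193). The adjustment over all probesets is that of this report. The paper called array genes by a nominal p and a fold change, with an estimated false discovery rate. Podxl had an unadjusted p of 0.000743 by the t-test and was lower by a factor of 1.61 in tamoxifen pools. Members past the threshold and lower numbered 0 by the t-test and with the replicate block, 2 with array weights (Podxl and Prom1), and 0 to 1 with an array left out. Prom1 was past it in 2 of the 15 alternatives and not in 13. The 2 near-zero members changed sign without passing. The log2 fold change of Podxl2 was 0.0608 with array weights, 0.01649 with quantile normalization, 0.01388 with median centring and -0.0587 to 0.0789 with an array left out, and the log2 fold change of Slc9a3r1 was 0.0277 with array weights, 0.008563 with median centring and -0.0407 to 0.000181 with an array left out. Among marker genes, the log2 fold change of Dcn was -0.0303 with array weights, -0.0249 with quantile normalization and -0.0249 to 0.0466 with an array left out, Krt18 -0.0517 to 0.00761 with an array left out, Acta2 -0.0306 with quantile normalization and -0.0143 to 0.0542 with an array left out, and Cd68, a macrophage gene, -0.0306 with array weights and -0.00294 to 0.263 with an array left out.

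Of all probesets, 63 rose and 24 fell past the adjusted threshold. The counts were 15 and 2 by the t-test, 136 and 54 with a variance trend, 356 and 163 with array weights, 129 and 65 above the median intensity, 116 and 45 with the offset, 13 and 2 with the replicate block, and 18 to 27 and 2 to 6 with an array left out. Of the listed genes, Alpl passed with a variance trend, array weights, the intensity filter and the offset, and Mal, Rab3ip, Muc4, Fcer1a, an IgE receptor chain, and Cpa3 passed with array weights. The median log2 fold change kept its sign in all alternatives for ezrin partners (0.0269 to 0.105), PDZ adaptors (-0.125 to -0.0275), polarity genes (-0.11 to -0.0165), endothelial (0.157 to 0.265), shared luminal (-0.161 to -0.0758), luminal progenitor (-0.22 to -0.0839) and mast cell markers (0.208 to 0.447). It took both signs for vesicle traffic (-0.0222 to 0.00938), other apical glycoproteins (-0.0153 to 0.062), stromal (-0.0354 to 0.0255), hormone-sensing (-0.126 to 0.0929), basal (-0.0306 to 0.0542) and leukocyte markers (-0.119 to 0.445). The cause of these shifts was not tested. Same-numbered pools deviated from their group means with correlations of 0.0541, 0.00722 and -0.0424, and differently numbered pools with -0.0628 to 0.0686. The labels give no shared origin for same-numbered pools, so the pools were taken as unpaired. These correlations cannot show whether pools shared a batch.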
